A study of Mus musculus with 7 samples.

Results

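Foxp1, Foxp2 and Foxp4, 3 members of the Foxp family, were taken by their symbols from the list of 32285 genes counted in every library, in which each had 1 row. Nuclei were isolated from the posterolateral cortical amygdala, an olfactory region of the brain, dissected into an anterior domain (aplCoA) and a posterior one (pplCoA), of male C57BL6J mice aged 8 weeks. No drug or other treatment set the groups apart, and all animals were housed singly and deprived of sensory input for the last day before tissue was taken. Each of the 3 aplCoA and 3 pplCoA replicates was tissue pooled from several animals, so that differences between single mice could not be seen. aplCoA replicate 1 was sequenced in 2 libraries, which were summed. The 7 libraries held 50812605 to 129624583 unique molecular identifiers (UMIs, 1 per captured RNA molecule), with medians of 5153 to 6752.5 UMIs per nucleus used, and 5 to 35 barcodes were shared by pairs of libraries. Of 52201 barcodes with at least 1000 genes, 46376 were used after limits on depth and quality and removal of doublets.

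Foxp proteins are forkhead transcription factors that bind DNA as dimers, with themselves or with each other, and mostly repress their targets. Foxp1 is widespread in cortex and striatum, Foxp2 is known for speech and motor learning and marks striatal, deep cortical and intercalated amygdala neurons, and Foxp4 is a related factor of neural development. In mouse build GRCm38 (mm10), Foxp1 (ENSMUSG00000030067) lies on chromosome 6 from 98925338 to 99522721 on the minus strand, Foxp2 (ENSMUSG00000029563) on chromosome 6 from 14901349 to 15441977 on the plus strand, and Foxp4 (ENSMUSG00000023991) on chromosome 17 from 47867133 to 47924645 on the minus strand. Their annotated spans were 597, 541 and 57.5 kb. Since reads from introns were counted, CPM levels of different genes are compared below only per kb of span. Whether UMIs scale with span was not tested, so values per kb are a description and do not rank the genes by abundance. UMIs per nucleus and shares of nuclei with a UMI are not corrected for span, and they are given for each gene by itself. Foxp4 overlaps the antisense gene Gm15556 and Foxp1 the sense-intronic Gm20705.

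Nuclei were clustered without the 3 Foxp genes, so that no Foxp level took part in the grouping, and clusters were named from marker genes. A name such as ABC (arachnoid barrier cell) or VLMC (vascular leptomeningeal cell) stands for nuclei like that cell type by its markers. Of the 5 ABC markers, Slc47a1, Cdh1 and Slc26a7 were raised in the 890 ABC nuclei, Dpp4 was not, and Krt18 was at 0. All 5 markers were raised in VLMC, macrophages, microglia, mature oligodendrocytes (MOL), newly formed oligodendrocytes (NFOL), oligodendrocyte precursors (OPC), astrocytes, Cajal-Retzius and GABAergic neurons, and 3 of 5 in glutamatergic neurons. Levels are given as CPM, the UMIs of the gene per 1000000 UMIs summed over the nuclei of a class in a replicate, with the SD over replicates of at least 10 nuclei. Levels between classes are a description, with no test.

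Beside 19696 glutamatergic and 5217 GABAergic nuclei, the classes included cells of the meninges, of which ABC had the highest mean Foxp1 and Foxp2 of all classes. In ABC, the barrier layer of the arachnoid, Foxp1 was at 5787, 6864 and 7057 CPM in aplCoA and at 7006, 7002 and 8189 CPM in pplCoA, a mean of 6984 ± 762 (SD, n = 6). Foxp2 in the same nuclei was at 2540, 3762 and 2947 CPM in aplCoA and at 3508, 3025 and 3020 in pplCoA, a mean of 3134 ± 435. Neither gene separated the domains there. Per kb of span, ABC held 11.7 ± 1.28 CPM of Foxp1, 5.80 ± 0.805 of Foxp2 and 3.03 ± 0.579 of Foxp4. A further cluster that no marker list named, led by Dpp4, Cubn, Dapl1, Fn1 and Prg4, came next for Foxp1 and Foxp2 with 2476 ± 262 CPM and 1244 ± 155 CPM (n = 4). Its 166 nuclei had the highest Foxp4, 221 ± 77.1 CPM, above ABC (174 ± 33.3 CPM) in 4 of 4 replicates. VLMC, fibroblast-like cells of the meninges and vessels, had a mean of 1518 CPM of Foxp1 (1426 to 1602 over the 6 replicates), 329 ± 53.2 of Foxp2 and 106 ± 20.1 of Foxp4.

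**Figure D1:**
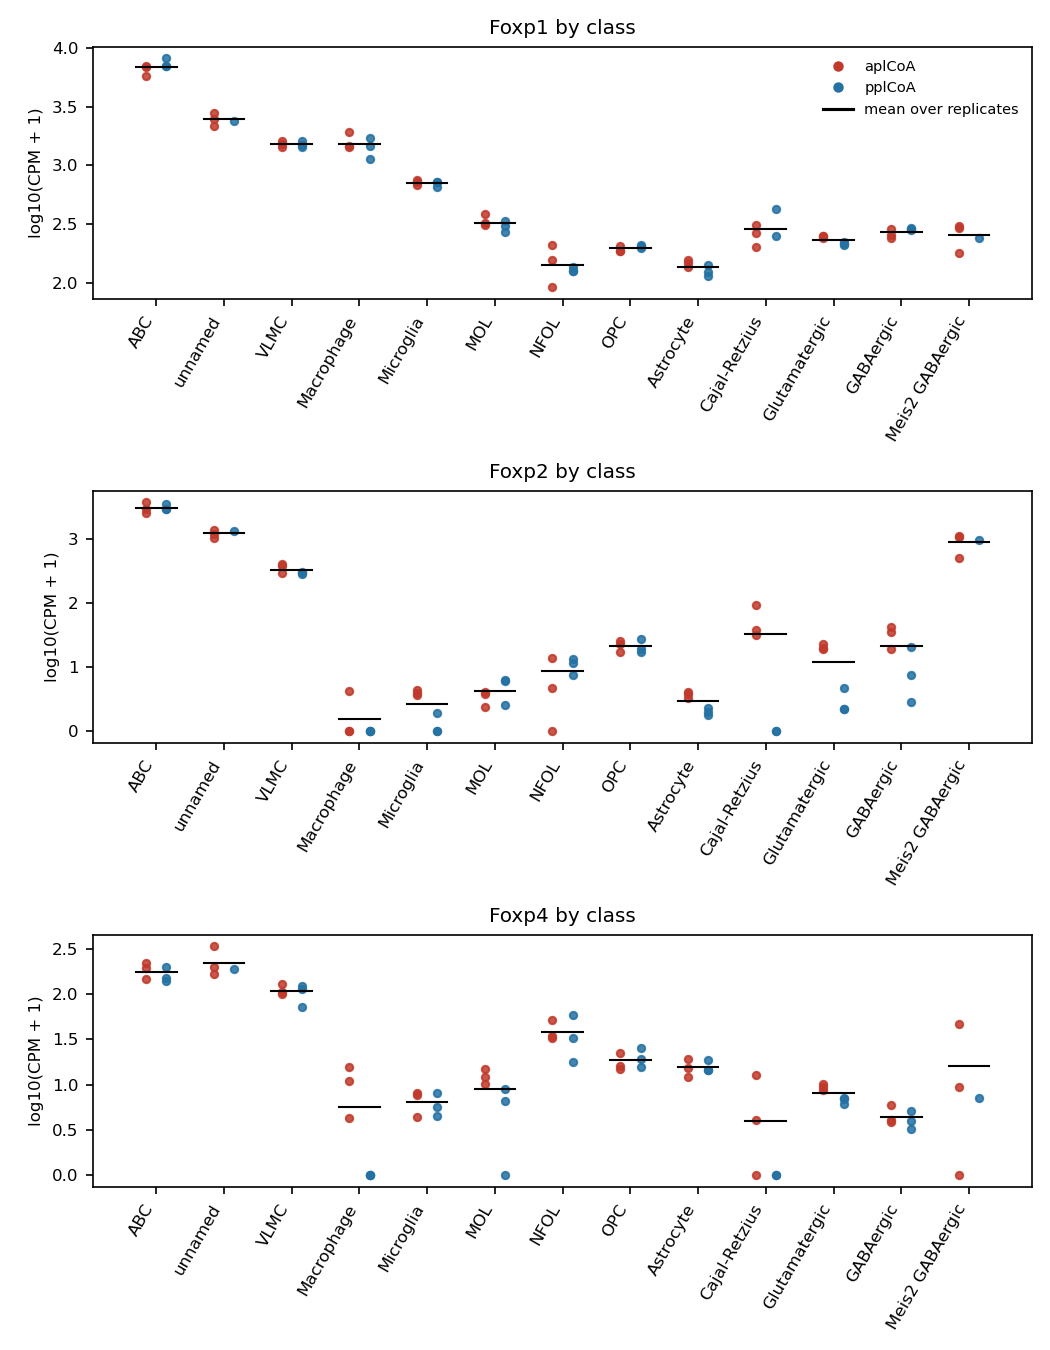
Level of Foxp1, Foxp2 and Foxp4 in each class, as log10(CPM + 1) on the vertical axis, with 1 point per replicate of at least 10 nuclei (red aplCoA, blue pplCoA) and a bar at the mean. ABC and the unnamed Dpp4 cluster have the highest means for all 3 genes, macrophages lie level with VLMC for Foxp1, and Meis2 GABAergic neurons (918 CPM) lie above VLMC (329 CPM) for Foxp2.

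Foxp1 and Foxp2 parted in the immune cells. Macrophages had as much Foxp1 as VLMC (1522 ± 270 CPM, higher in 2 of 6 replicates) and microglia had 708 ± 35.3 CPM, but Foxp2 in these immune cells was near 0, with 1 replicate of 6 above 0 in macrophages and a mean of 1.67 ± 1.54 CPM in microglia. Foxp1 then fell to 319 ± 37.8 CPM in MOL, 288 ± 83.7 in Cajal-Retzius neurons (n = 5), 271 ± 20.2 in GABAergic and 229.5 ± 18.1 in glutamatergic neurons. Foxp1 in Cajal-Retzius nuclei did not differ from MOL, or from GABAergic nuclei, beyond the spread of the paired differences (41.2 ± 91.8 and 18.6 ± 67.6 CPM, n = 5). The lowest levels were 197 ± 10.9 in OPC, 139 ± 39.9 in NFOL and 135 ± 16.0 CPM in astrocytes, of which the last pair overlapped. This order is by CPM, a share of all UMIs. Counted as UMIs per nucleus without thinning, Foxp1 was at 3.13 in glutamatergic, 2.47 in microglia and 2.36 in GABAergic nuclei. Cajal-Retzius and MOL nuclei had 1.14 and 1.13, and ABC still had the most, 27.7.

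Foxp4 followed another order in glia. NFOL had 37.1 ± 14.8 CPM, above OPC (17.9 ± 4.15 CPM) in 6 of 6 replicates, and OPC and astrocytes (14.7 ± 2.65 CPM) did not differ beyond their spread. Per kb of span, NFOL had 0.644 ± 0.256 CPM of Foxp4 and 0.233 ± 0.0667 of Foxp1, whereas glutamatergic neurons had 0.123 ± 0.0272 of Foxp4 and 0.384 ± 0.0302 of Foxp1. Foxp2 was at 20.9 ± 4.52 CPM in OPC, with 16.2 to 27.1 over the replicates, and at 3.23 ± 1.67 CPM in MOL. Cajal-Retzius neurons had Foxp2 at 36.7, 93.3 and 30.8 CPM in aplCoA (12, 8 and 3 UMIs). It was at 0 CPM in pplCoA replicates 1 and 2 (19 and 11 nuclei), and pplCoA replicate 3 had 8 nuclei.

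The share of a gene's UMIs that came from ABC differed between the genes. ABC made up 1.69 ± 1.13% of nuclei but held 57.6 ± 6.22% of all Foxp2 UMIs (range 49.5 to 66.6% over replicates) and 16.7 ± 8.94% of Foxp1 UMIs. VLMC held a further 15.6 ± 5.32% of Foxp2 UMIs, while glutamatergic neurons held 13.1 ± 8.08%. Summed over all nuclei, Foxp2 was at 57.5, 83.5 and 90.6 CPM in aplCoA and at 17.8, 16.9 and 20.0 in pplCoA, which did not overlap (4.23-fold, exact permutation p = 0.1, two-sided, the smallest that 3 against 3 replicates allow). ABC were 2.59 ± 0.849% of nuclei in aplCoA and 0.783 ± 0.175% in pplCoA (exact p = 0.1, n = 3 each). Their part in the sum over all nuclei was not tested. In any sum over mixed nuclei, more nuclei of a type and more RNA per nucleus cannot be told apart, so the domains were compared within classes.

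To see whether the genes lay in the same nuclei, each nucleus was thinned to 2000 UMIs. All 855 ABC nuclei deep enough had a Foxp1 UMI, and 97.3% (95% Clopper-Pearson interval 96.0 to 98.3%, counting error only) had a Foxp2 UMI as well. The median ABC nucleus held 12 UMIs of Foxp1 out of 2000, and the median for Foxp2 was 5. In VLMC, 91.7% of 1622 nuclei had Foxp1 and 38.8% had Foxp2, with Foxp2 found in 39.3% of nuclei with Foxp1 and 33.6% of those without. As a background, 0.483% of 1450 MOL nuclei (median 2957 UMIs) and 0.501% of 2393 microglia had a Foxp2 UMI. Barcodes with fewer than 100 UMIs, which hold mostly free RNA, had Foxp2 at 37.1 to 103 CPM in aplCoA libraries and 22.4 to 45.3 CPM in pplCoA libraries. Foxp1 in them was at 224 to 552 CPM in aplCoA and 179 to 305 CPM in pplCoA. For Foxp4 the ranges were 14.1 to 18.1 and 11.4 to 12.9 CPM. The unthinned share in ABC was 99.7% of 890 nuclei at a median of 3940 UMIs.

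**Figure D2:**
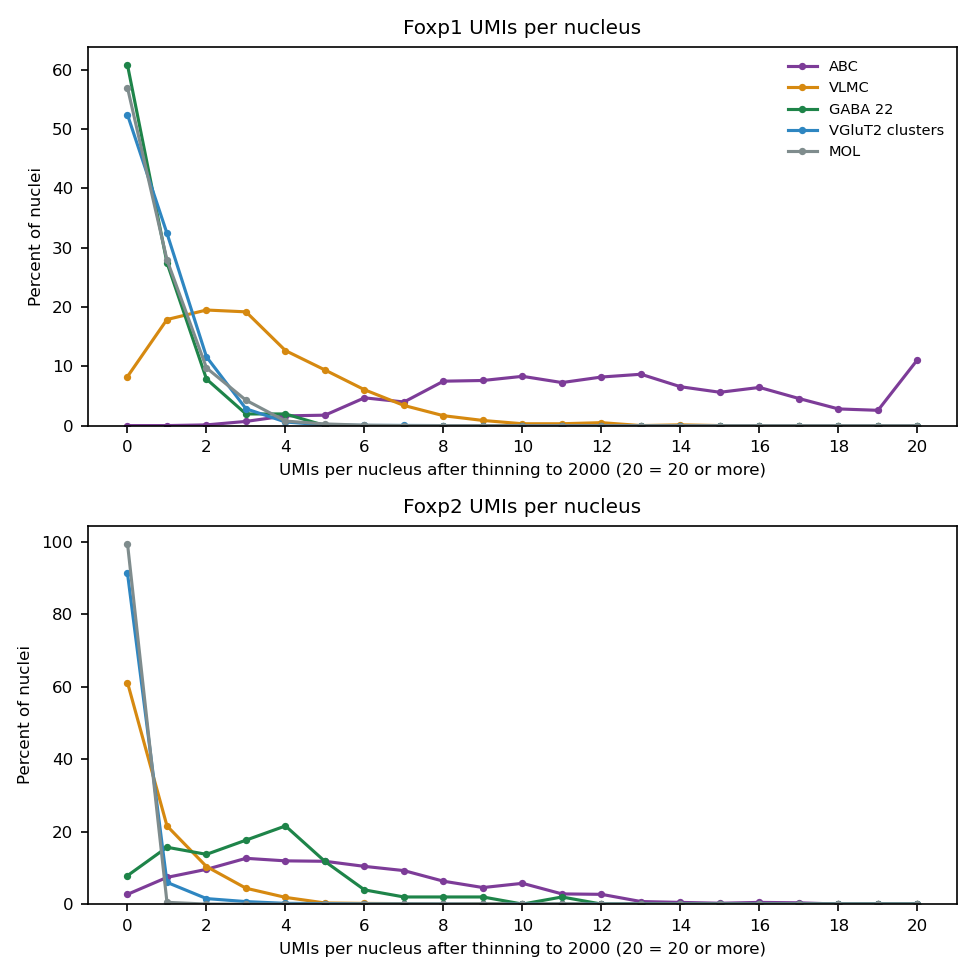
Percent of nuclei (vertical axis) with each number of Foxp1 or Foxp2 UMIs after thinning to 2000 UMIs per nucleus (horizontal axis, 20 standing for 20 or more). ABC nuclei centre on 12 Foxp1 UMIs with none at 0, and for Foxp2 only 2 groups, ABC and the GABAergic cluster GABA 22, have most nuclei above 0 among the 5 groups drawn.

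Glutamatergic nuclei fell into 25 clusters, numbered by size and made also without the genes that differed between the domains. Foxp2 was confined mostly to a few of them. Glu 7, led by Rxfp1, Hmcn1 and the homeobox gene Meis1, had 155, 148 and 181 CPM in aplCoA and 119 CPM in pplCoA replicate 1, while pplCoA replicates 2 and 3 had fewer than 10 nuclei of it. Its mean was 151 ± 25.6 CPM (n = 4), above Glu 18 (Gpc5, Pappa2, Meis1; 85.7 ± 35.3 CPM) in 4 of 4 shared replicates. Glu 12 (Ebf1, Meis1, Pbx3) had 68.9 ± 33.7 CPM, and Glu 18 and Glu 12 did not differ beyond their spread. Together Glu 7, Glu 12 and Glu 18 were 2415 nuclei and held 86.7% of the glutamatergic Foxp2 UMIs, 55.2% in Glu 7 alone, a trio picked after their levels were seen. By domain the trio held 88.9% in aplCoA and 63.0% in pplCoA, and Glu 7 alone 56.8% and 37.4%. Glu 23 followed with 42.8 ± 29.3 CPM, and the other 18 of the 22 clusters with at least 3 replicates were under 10 CPM.

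All 3 of these clusters had more Slc17a6 (VGluT2) than Slc17a7 (VGluT1), the vesicular glutamate transporter genes. The 5 clusters of that kind, 3958 nuclei, held 88.3% of the glutamatergic Foxp2 UMIs pooled over replicates. This was 90.5% in aplCoA and 63.7% in pplCoA. In pplCoA replicates 2 and 3 they held 15 of 43 and 9 of 34, so that VGluT1 clusters held most there. Not every VGluT2 cluster was high, since Glu 4 (Vwa5b1, Glra1) had 4.49 ± 4.31 CPM of Foxp2 but the highest Foxp1 of all, 432 ± 46.1 CPM. Among VGluT2 nuclei thinned to 2000 UMIs, 8.68% had a Foxp2 UMI, in 8.19% of nuclei with Foxp1 and 9.13% of those without. In VGluT1 nuclei the share was 0.363% of 15710, below that of MOL.

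Foxp1 and Foxp4 were graded differently. After Glu 4, Foxp1 was highest in Glu 15 (Ebf2, Npsr1; 385 ± 16.4 CPM) and Glu 17 (Grik3, Etv1; 339 ± 16.9 CPM), and lowest in Glu 8 (138 ± 11.0) and Glu 6 (131 ± 24.8), which did not differ beyond their spread. Glu 4 exceeded Glu 15 in 4 of 4 replicates. The study placed glutamatergic neurons marked by Etv1 in the posterior basomedial amygdala, a neighbouring region. It read those marked by Fign, a leading gene of Glu 2, as likely from the adjacent cortex-amygdala transition area. Whether Glu 17 and Glu 2 are those neurons was not tested. Foxp4 peaked in Glu 18, at 60.3 ± 15.8 CPM, above Glu 12 (27.3 ± 5.93 CPM) in 4 of 4 replicates, and lay between 3.40 and 13.8 CPM in the other 20 clusters. Glu 18 was thus high for Foxp2 and Foxp4, and Glu 4 for Foxp1 alone.

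**Figure D3:**
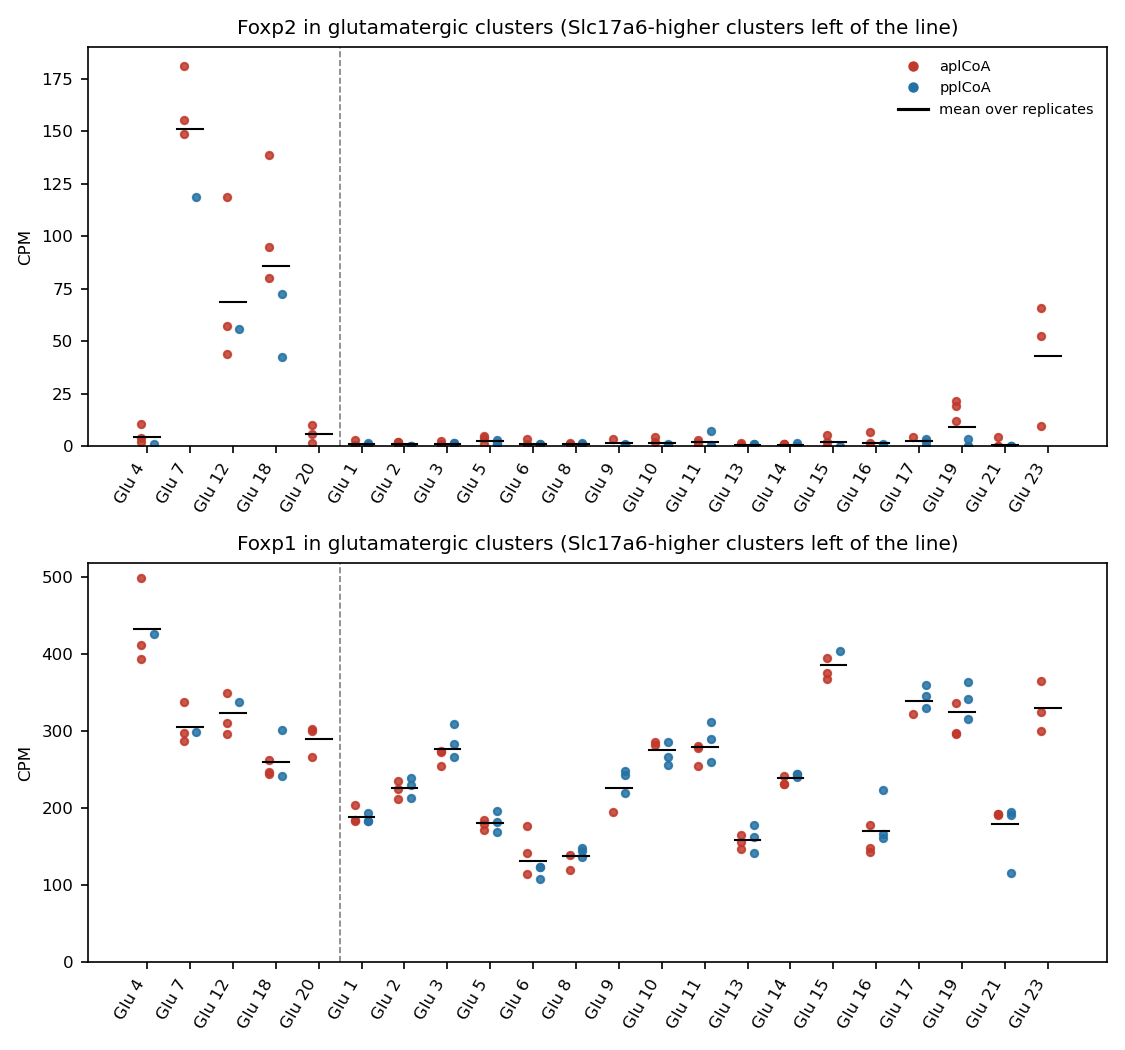
Foxp2 and Foxp1 level in CPM (vertical axis) in the 22 glutamatergic clusters with at least 3 replicates of 10 or more nuclei, 1 point per replicate (red aplCoA, blue pplCoA) and a bar at the mean, VGluT2 clusters left of the dashed line. Foxp2 is high in Glu 7, Glu 18 and Glu 12, and Foxp1 ranges from 131 CPM in Glu 6 to 432 CPM in Glu 4.

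GABAergic nuclei showed a sharper contrast. Meis2 GABAergic neurons (111 nuclei, 4 of 5 markers raised, all but Synpr), which share Meis2, Tshz1 and Pbx3 with intercalated and striatal-lineage cells, had Foxp2 at 514, 1091 and 1107 CPM in aplCoA and at 958 CPM in pplCoA replicate 1, against 2.42, 0.787, 8.46 and 2.89 CPM in the other GABAergic nuclei of these replicates. The levels did not overlap, with means of 918 ± 277 and 3.64 ± 3.34 CPM and Foxp2 higher in 4 of 4. pplCoA replicate 2 had 3 Meis2 nuclei (1134 CPM) and pplCoA replicate 3 had 0, so the domains could not be compared within this class. Foxp1 did not follow, at 253 ± 57.7 CPM against 264 ± 21.4 in the others, higher in 2 of 4 replicates.

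Of the 2 Meis2 clusters, GABA 22 carried nearly all of it. Its 51 nuclei had Foxp2 at 1736, 1969, 2202, 1728 and 1134 CPM in the 5 replicates with any nuclei, of which aplCoA replicate 2 and pplCoA replicate 2 had 8 and 3. Thinned to 2000 UMIs, 92.2% of them (interval 81.1 to 97.8%) had a Foxp2 UMI. Foxp1 was found in 39.2% of them. Per kb of span they held more Foxp2 than Foxp1, 3.49 against 0.372 CPM. GABA 21 (60 nuclei, led by Zfhx3, Zfhx4, Meis2 and Nts) had Foxp2 in 13.3% of nuclei (5.94 to 24.6%), at 154 and 240.0 CPM in aplCoA replicates 1 and 3 and at 14.7 and 13.7 CPM in the remaining pair, which had fewer than 10 nuclei. An unnamed cluster, GABA 23 (Cyp19a1, Greb1, Prlr, Esr2), had 144 CPM in aplCoA replicate 3, which held 41 of its 42 nuclei. In all GABAergic nuclei outside the Meis2 class, those of GABA 23 included, 0.414% had a Foxp2 UMI, against 0.483% in MOL.

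Foxp1 was graded among GABAergic classes within a narrower range. Vip neurons had 329 ± 52.2 CPM, Lamp5 neurons 293 ± 26.5 and Cck neurons 285 ± 58.3. Sst neurons had 244.5 ± 37.0 CPM and exceeded Pvalb neurons (175 ± 10.5 CPM, 2 of 5 markers raised) in 6 of 6 replicates. The highest cluster was GABA 3, a Vip cluster with Crh, at 426 ± 23.6 CPM, and GABA 7, a Pvalb cluster, had 149.5 ± 21.5 CPM.

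**Figure D4:**
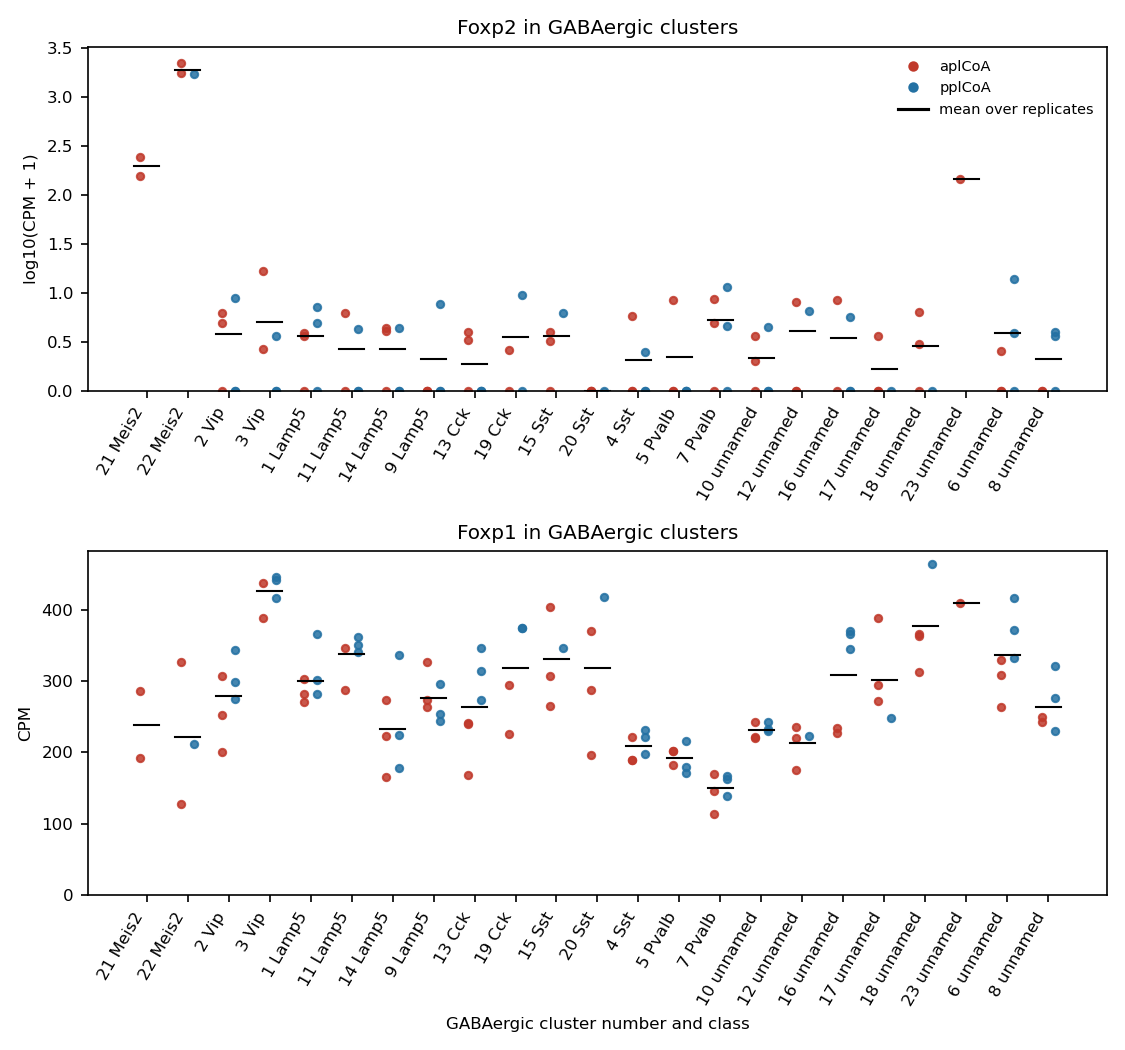
Foxp2 as log10(CPM + 1) and Foxp1 in CPM (vertical axes) in GABAergic clusters of at least 40 nuclei, ordered by class, 1 point per replicate of at least 10 nuclei (red aplCoA, blue pplCoA) and a bar at the mean. Foxp2 stands out in GABA 22 and, less so, GABA 21 and GABA 23, while Foxp1 is highest in GABA 3 and lowest in GABA 7.

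The anterior and posterior domains were next compared within each class, by edgeR's quasi-likelihood test on counts summed per replicate. Genes with a UMI in at least 10% of the nuclei of a domain were tested, and p-values were adjusted by Benjamini-Hochberg over all genes of a class. In the 10 classes with 10 or more nuclei in every replicate, Foxp genes passed the filter 15 times (Foxp1 in 10 classes, Foxp2 in 2, Foxp4 in 3). None of the 15 was called by the quasi-likelihood test, the likelihood ratio test or DESeq2, and 2, 1 and 1 had an unadjusted p under 0.05. The share of all genes called was 20.7% in glutamatergic and 10.2% in GABAergic neurons, 6.44% in OPC, 2.06% in MOL, 0.677% in astrocytes, 0.118% in ABC, 0.0174% in VLMC and 0.0% in microglia, macrophages and NFOL. In ABC the log2 change, aplCoA over pplCoA, was -0.14 ± 0.16 (SE) for Foxp1 and -0.02 ± 0.17 for Foxp2. Foxp2 in VLMC was at 294, 409 and 383 CPM in aplCoA and at 284, 295 and 310.0 in pplCoA, which overlap, with a log2 change of 0.31 ± 0.14 and an adjusted p of 0.606.

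**Figure D5:**
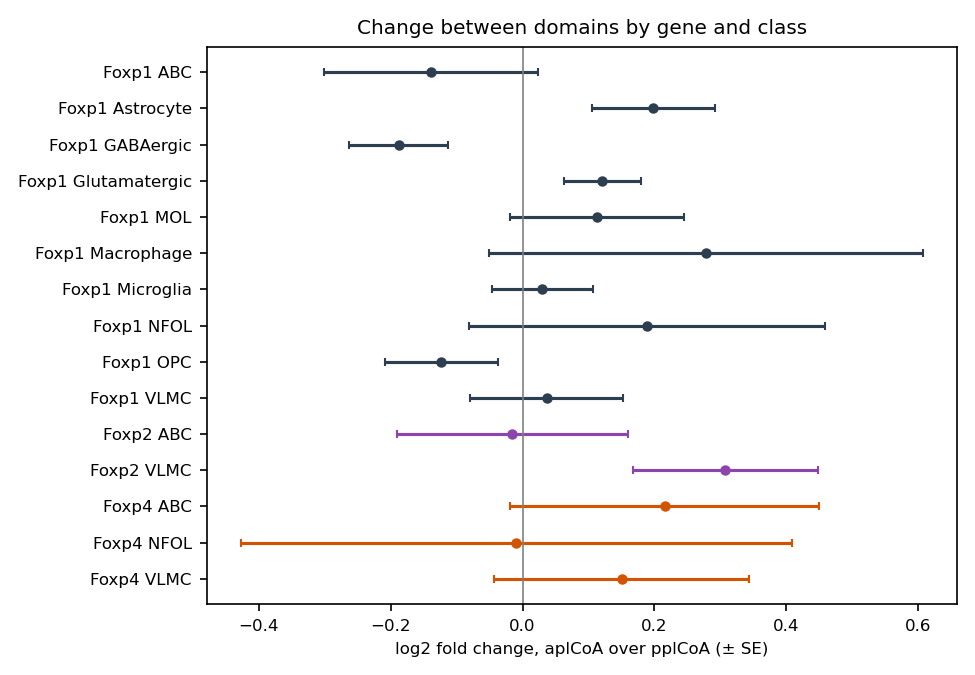
Log2 fold change, aplCoA over pplCoA, with its SE (horizontal axis) for each Foxp gene and class that passed the filter (rows). Values lie between -0.19 and 0.31, and none was called at an adjusted p of 0.05.

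Foxp1 in glutamatergic neurons was at 249.5, 241 and 246 CPM in aplCoA and at 213, 208.5 and 219 in pplCoA. The 2 groups of replicates did not overlap, but the change was small (log2 0.12 ± 0.059) and was not called (adjusted p = 0.189). Within VGluT1 clusters it was 0.00 ± 0.06 and within VGluT2 clusters 0.16 ± 0.25, with adjusted p of 0.978 and 0.928. In GABAergic neurons Foxp1 was at 252, 240.1 and 284 CPM in aplCoA and at 278, 290.5 and 283 in pplCoA, which overlap, with a log2 change of -0.19 ± 0.08 (adjusted p = 0.148), or -0.03 without removal of doublets. The change in glutamatergic neurons exceeded that in GABAergic neurons by 0.33 ± 0.08 on the log2 scale (interaction term with replicate as a block, adjusted p = 0.0400, edgeR; 5.24% of genes were called). That call was lost without aplCoA replicate 1 (adjusted p = 0.183), aplCoA replicate 2 (0.110), pplCoA replicate 2 (0.161) or pplCoA replicate 3 (0.0921). In the 19 fits within single clusters, GABAergic classes and VGluT groups, Foxp1 was called in 0, with log2 changes from -0.50 to 0.18, 2 unadjusted p under 0.05 and a lowest adjusted p of 0.343. The 2 were Cck (-0.50 ± 0.18) and Vip (-0.28 ± 0.14) GABAergic neurons, with adjusted p of 0.541 and 0.355. In both, the replicates did not overlap between the domains (exact p = 0.1 each, the smallest that 3 against 3 replicates allow). The share of all genes with no overlap was not counted, in these classes or in any other. The change was -0.19 in Lamp5, -0.17 in unnamed, -0.02 in Pvalb and -0.002 in Sst GABAergic neurons. All 19 fits were added after the data were seen. The share of all genes called in them was 10.7% in VGluT1 and 0.0% in VGluT2 clusters, 7.86% in Lamp5, 4.71% in unnamed, 2.58% in Vip, 1.43% in Sst, 1.36% in Pvalb and 0.0218% in Cck GABAergic nuclei. In single glutamatergic clusters it was 2.47% in Glu 21, 2.05% in Glu 11, 1.27% in Glu 13, 1.12% in Glu 1, 0.971% in Glu 19, 0.327% in Glu 3, 0.305% in Glu 5, 0.241% in Glu 6, 0.176% in Glu 2, 0.0496% in Glu 14 and 0.0% in Glu 16.

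Foxp2 in all glutamatergic neurons missed the filter, since few nuclei held it. It was at 22.5, 18.4 and 19.1 CPM in aplCoA and at 3.79, 1.24 and 1.21 CPM in pplCoA, 9.61-fold apart with no overlap (exact p = 0.1, the smallest possible). With edgeR's filterByExpr filter in place of the 10% rule, the log2 change was 3.09 with an adjusted p of 0.00237, in a fit that called 16.4% of genes, and it was called in every filterByExpr alternative run (adjusted p from 3.32e-14 to 0.0195). Its size rested partly on pplCoA replicate 1, without which the fitted fold rose from 8.49 to 15.4. Beside it stood the share of VGluT2 clusters among glutamatergic nuclei, 35.2, 24.9 and 26.1% in aplCoA and 9.43, 0.591 and 0.447% in pplCoA (exact p = 0.1). Within VGluT2 clusters Foxp2 was at 72.8, 83.1 and 74.8 CPM in aplCoA and at 43.0, 78.3 and 75.2 CPM in pplCoA, where replicates 2 and 3 had 14 and 10 nuclei. The groups overlapped there, with a log2 change of 0.57 ± 0.23 and an adjusted p of 0.422 in a fit that called 0.0% of genes. The VGluT2 nuclei were not the same mix of clusters in each replicate, since Glu 18 made up 153 of 2312, 59 of 386 and 124 of 906 of them in aplCoA and 23 of 330, 12 of 14 and 7 of 10 in pplCoA. It held 12 of the 15 and 9 of the 9 Foxp2 UMIs of pplCoA replicates 2 and 3. Within VGluT1 clusters it was at 2.92, 1.15 and 3.03 CPM in aplCoA and at 0.975, 0.815 and 0.891 in pplCoA (filterByExpr log2 change 1.40 ± 0.32, adjusted p = 0.0290, 7.8% of genes called, against 0.00747% in VGluT2 clusters). Foxp2 also stood at 3.36, 3.04 and 2.69 CPM in aplCoA microglia (10, 3 and 4 UMIs) against 0.946, 0 and 0 CPM in pplCoA (2, 0 and 0 UMIs). In astrocytes it was at 2.89, 2.36 and 3.15 against 1.32, 0.829 and 1.03 CPM. The filterByExpr fit there called 0.452% of genes but not Foxp2 (adjusted p = 0.170). In MOL, NFOL and OPC the replicates overlapped between the domains. Their Foxp2 means were 2.46, 5.52 and 21.2 CPM in aplCoA and 4.01, 9.97 and 20.6 CPM in pplCoA. MOL held 5, 1 and 3 against 2, 2 and 1 UMIs, and NFOL 0, 1 and 4 against 5, 2 and 3. A shift as small as in microglia could not be seen at such counts, or in OPC, which ran from 16.2 to 27.1 CPM. VGluT1 nuclei also differed in their clusters, with 94 nuclei of Glu 23, the highest of them in Foxp2, in aplCoA against 1 in pplCoA, 1745 against 86 of Glu 2 and 26 against 1037 of Glu 9. The part of free RNA and of this mix in the VGluT1 difference was not tested.

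Foxp2 in GABAergic neurons was at 18.5, 42.4 and 34.7 CPM in aplCoA and at 19.8, 6.46 and 1.83 CPM in pplCoA, which overlap (3.40-fold, exact p = 0.2). The filterByExpr fit called it (log2 1.43, adjusted p = 0.0488, 7.33% of genes called), and the call was lost with DESeq2 (adjusted p = 0.363), with the replicate block (0.0772), with log-normalized clusters (0.103), with either library of aplCoA replicate 1 alone (0.150 and 0.0600) and without aplCoA replicate 2 (0.147) or 3 (0.103) or pplCoA replicate 2 (0.177) or 3 (0.108). Without pplCoA replicate 1 the fitted fold rose from 2.69 to 7.13 (adjusted p = 0.000192). Meis2 nuclei numbered 50, 15 and 25 in aplCoA and 18, 3 and 0 in pplCoA. Foxp4 in glutamatergic neurons was at 8.40, 9.13 and 7.71 CPM in aplCoA and at 6.17, 5.18 and 5.89 CPM in pplCoA, with no overlap (1.46-fold, exact p = 0.1). Under filterByExpr its log2 change was 0.46 with an adjusted p of 0.0348, which was lost without aplCoA replicate 1 (0.0888) or 2 (0.111) or pplCoA replicate 2 (0.132) or 3 (0.0881), with the replicate block (0.0612), with library 1 of aplCoA replicate 1 alone (0.0579) and with no doublet removal (0.0569). Within VGluT1 clusters the Foxp4 change was 0.02 ± 0.13 (filterByExpr, adjusted p = 0.943). Within VGluT2 clusters Foxp4 was at 15.2, 22.2 and 17.2 CPM in aplCoA and at 17.2, 47.0 and 142 CPM in pplCoA, which overlap, with a log2 change of -0.68 ± 0.53 (adjusted p = 0.773). All 9 and 17 Foxp4 UMIs of the last pair of replicates came from Glu 18, the highest cluster in Foxp4. Barcodes with fewer than 100 UMIs had Foxp4 at 14.1 to 18.1 CPM in aplCoA libraries and 11.4 to 12.9 CPM in pplCoA libraries. These ranges did not overlap, and each lay above the glutamatergic level of its domain. The part of the VGluT2 share and of free RNA in the change over all glutamatergic neurons was not tested. In GABAergic neurons Foxp4 overlapped between the domains, with 3.66 ± 1.20 CPM in aplCoA and 3.13 ± 0.958 in pplCoA (exact p = 0.6). The filterByExpr fit in OPC, which called 4.25% of genes, held all 3 members and called none. In MOL, where 1.45% of genes were called, only Foxp1 entered the fit, and it was not called. Foxp4 in MOL was at 9.30, 14.1 and 11.2 CPM in aplCoA and at 5.62, 8.06 and 0 CPM in pplCoA. These did not overlap (2.53-fold, exact p = 0.1), on 16, 10 and 11 against 7, 3 and 0 UMIs. The part of free RNA in that difference was not tested either.

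Other genes of Foxp biology were read in the same fits. Of 22 known partners of Foxp proteins (corepressors, NuRD subunits and cortical factors), 20 were tested in glutamatergic neurons, of which Tbr1, a cortical T-box factor, was higher in aplCoA (log2 0.49 ± 0.11) and Sox5, a SoxD factor of deep-layer neurons, was lower (-0.72 ± 0.16). That is 10.0% of those tested, against 20.7% of all genes, and the list's median change was 0.02 against 0.00 over all genes. In GABAergic neurons 1 of 19 was called, the chromatin organizer Satb1 (0.43 ± 0.09), with a median of 0.11, where 10.2% of all genes were called. Of 4 target genes tested of 7, Cntnap2, a cell adhesion gene, rose (0.52 ± 0.11) and Mef2c, a synapse-limiting factor, fell (-0.37 ± 0.10) in glutamatergic neurons, with a median of -0.02, and 0 of 4 were called in GABAergic neurons, with a median of -0.06.

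Of 21 striatal and intercalated-cell genes, 9 were tested in glutamatergic neurons. Ebf1 (3.22 ± 0.63), Rgs9 (0.97 ± 0.19) and Meis2 (0.81 ± 0.21) were higher in aplCoA, and Oprm1, the mu opioid receptor (-0.68 ± 0.12), and Bcl11b (-0.54 ± 0.08) were lower, with a median of 0.07, in a fit that called 20.7% of all genes. None of 8 was called in GABAergic neurons, where the median was -0.06 and 10.2% of all genes were called. The other forkhead genes, 9 tested in glutamatergic and 6 in GABAergic neurons, had 0 calls against those same shares of all genes, with medians of -0.03 and -0.08. The genes with the pattern most like each member were sought over 51 neuronal clusters and other classes of at least 100 nuclei, by Pearson r of log2(CPM + 1), as a description of groups that share libraries. For Foxp2 they were the forkhead gene Foxd1 (0.84), Foxp4 (0.83), Zic1 (0.82), Bmp6 (0.82) and Hmcn1 (0.82). For Foxp4 they were Egflam (0.83), Foxp2 (0.83), S100pbp (0.82), Fmnl2 (0.80) and 2810433D01Rik (0.79), and for Foxp1 they were Smg6 (0.90), Aff4 (0.88), March7 (0.87), Anxa1 (0.86) and Tuba1c (0.86). Foxp1 itself was less like Foxp2 (0.65) and Foxp4 (0.56) than those 2 were like each other. GABA 21 and GABA 22, with 60 and 51 nuclei, were too small to enter. GABA 22 held 3.49 ± 0.503 CPM of Foxp2 per kb of span but 0.223 ± 0.240 of Foxp4 (n = 3).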

How the data were processed

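Nuclei of aplCoA and pplCoA were profiled by droplet single-nucleus RNA sequencing in 7 libraries, grouped by the labels. The authors deposited unfiltered UMI counts per gene and barcode, made with Cell Ranger 5.0.0 and mm10 with introns counted (per the study's methods and processing notes). The counts were not normalized.

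Nuclei were barcodes with 1000 or more genes, within limits per library on UMIs (5 median absolute deviations) and on the mitochondrial and ribosomal shares (5 interquartile ranges past the quartile). Scrublet scores marked 4117 nuclei as doublets, at 1% per 1000 nuclei. Counts were turned to Pearson residuals (theta 100, 5000 variable genes), reduced to 50 components and clustered by Leiden at resolution 1.0 on 15 neighbours (scanpy 1.11.5, Python 3.11.15). The Foxp genes were left out, and for neuronal subclusters also the genes called between domains. Clusters were named from marker genes. After the clusters were seen, 20 nuclei were moved to endothelial, 140 to GABAergic and 80 to an unnamed mixed cluster. Mural, endothelial and mixed nuclei had too few replicates for means.

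Counts were summed per class and replicate and tested with edgeR 4.0.16 in R 4.3.3 after TMM scaling. Genes missing the 10% filter were compared by exact permutation of CPM. The fits within clusters and VGluT groups and the tests with filterByExpr beyond the planned one were added after the data were seen. DESeq2 1.42.0, the likelihood ratio test and other filters, scalings, clusterings and replicate sets were alternatives. The fitting was tested on simulated data, for genes passing the 10% filter only. Genes under that filter, such as Foxp2 and Foxp4 in glutamatergic and GABAergic neurons, were not covered. Replicates are pools of mice, so p-values measure the spread between pools, and intervals cover counting error only. The members and gene lists were chosen with earlier results of these data known. Named genes were the 3 members, up to 6 called genes with the lowest adjusted p per list and fit, and the 5 genes most like each member.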

Additional observations from a re-analysis of the deposited data

Results flagged for a closer look

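The domain change of Foxp1 differed between glutamatergic and GABAergic neurons by 0.33 on the log2 scale (edgeR interaction term with replicate as a block, adjusted p = 0.0400). The test of the difference itself passed the threshold, although neither class alone was called. Without removal of doublets the GABAergic change was -0.02 under filterByExpr, and the interaction was not run on those nuclei. Within VGluT1 clusters the Foxp1 change was 0.00 ± 0.06. The call was lost without aplCoA replicate 1 (adjusted p = 0.183), aplCoA replicate 2 (0.110), pplCoA replicate 2 (0.161) or pplCoA replicate 3 (0.0921), with edgeR in each case.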

How the results depend on the processing

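For the 15 fitted changes between domains, with Foxp2 and Foxp4 in both neuron classes and Foxp2 in astrocytes from CPM, 315 values under the alternatives kept their direction and their side of the threshold, 27 turned direction and 35 came to pass the threshold. Foxp1 was called in glutamatergic or GABAergic neurons under no alternative run. Log2 changes, aplCoA over pplCoA, follow. Foxp2 in glutamatergic neurons passed the threshold with filterByExpr (3.09), no filter (3.09), and, under filterByExpr, the likelihood ratio test (3.15), DESeq2 (3.17), RLE scaling (3.08), the replicate block (3.23), either library of aplCoA replicate 1 alone (3.10 and 3.10), no doublet removal (3.01), classes by UMIs per nucleus (3.02) and log-normalized clusters (3.15), and, without aplCoA replicates 1, 2 and 3 and pplCoA replicates 1, 2 and 3 in turn, 3.03, 3.14, 3.13, 3.94, 2.83 and 2.85. Foxp4 in glutamatergic neurons passed with filterByExpr (0.46), no filter (0.46), the likelihood ratio test (0.46), DESeq2 (0.46), RLE scaling (0.46), library 2 alone (0.52), classes by UMIs (0.44) and log-normalized clusters (0.46), and without aplCoA replicate 3 (0.53) or pplCoA replicate 1 (0.52), but not with the replicate block (adjusted p = 0.0612), library 1 alone (0.0579) or no doublet removal (0.0569). Foxp2 in GABAergic neurons passed with filterByExpr (1.43), no filter (1.43), the likelihood ratio test (1.68), RLE scaling (1.43), no doublet removal (1.16) and classes by UMIs (1.51), and without aplCoA replicate 1 (1.77) or pplCoA replicate 1 (2.83), but not with the replicate block (adjusted p = 0.0772) or log-normalized clusters (0.103). Directions that turned were all of changes never called. Foxp2 in ABC was 0.093 with no filter, 0.040 with library 2 alone and -0.19 to 0.10 without 1 replicate. Foxp4 in GABAergic neurons was -0.014 with filterByExpr, -0.012 with no filter, -0.0016 by likelihood ratio, -0.014 with RLE scaling, -0.011 with library 2 alone, -0.16 with no doublet removal, -0.087 with log-normalized clusters, -0.21, -0.058 and -0.18 under filterByExpr without aplCoA replicate 2, pplCoA replicate 2 and pplCoA replicate 3, and, in CPM, -0.072 to 0.48 without 1 replicate. Foxp4 in NFOL was 0.00078 by likelihood ratio, 0.017 with DESeq2, 0.091 with the replicate block and -0.33 to 0.61 without 1 replicate. Without 1 replicate, Foxp1 ran from -0.023 to 0.063 in microglia, -0.17 to 0.44 in NFOL and -0.0051 to 0.086 in VLMC, and Foxp4 from -0.076 to 0.28 in VLMC. Under filterByExpr, Foxp2 in OPC ran from -0.17 to 0.26 and Foxp4 in astrocytes from -0.27 to 0.051, and these are not in the counts above. The Foxp1 interaction, without 1 replicate, ran from 0.28 to 0.40. Genes called in glutamatergic neurons were 2016, or 3077 with filterByExpr, 3392 with no filter and 791 to 2398 without 1 replicate, and in GABAergic neurons 894, or 1542 with no filter, 189 with library 1 alone and 272 to 919 without 1 replicate. Both counts fell by more than 1.5 times without aplCoA replicate 1 (887 and 310), aplCoA replicate 2 (1034 and 443) or pplCoA replicate 2 (791 and 272), and the first also without pplCoA replicate 3 (1041). Samples with the same number did not pair (correlations of -0.0739 to 0.125 in glutamatergic and -0.156 to 0.00103 in GABAergic neurons), and with the block 1854 and 782 genes were called. Domain fits within Meis2 GABAergic neurons were not run, since pplCoA replicates 2 and 3 had 3 and 0 such nuclei. The cause of these moves was not tested.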
